A study of Mus musculus with 6 samples.

Results

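The genes described here are the mouse Wnt ligands, the Frizzled receptors and a set of co-receptors, feedback genes and secreted inhibitors of the same pathway. They were chosen by name: every gene whose symbol is Wnt or Fzd followed by a number, together with Lrp5, Lrp6, Rnf43, Znrf3, Axin2, Lgr4, Lgr5, Nkd1, Lef1, Tcf7, Notum, Dkk1, Dkk2, Dkk3, Sfrp1 and Sfrp2. This gave 45 of the 56953 genes in the deposited table, made up of 19 ligands, 10 Frizzled receptors and 16 others. Messenger RNA was profiled in 6 mouse cell lines of pancreatic ductal adenocarcinoma (PDAC), 1 library for each: KPC850, KPC630, KPC490, KPC469, KPC180 and KPC142. All 6 came from tumours of KPC mice, a genetically engineered model of pancreatic cancer, and the labels spell out no allele. The study asked what distinguishes lines whose tumours admit few CD8+ T cells from lines whose tumours admit many, but the labels assign no line to either class, so each line is given by its own value and no groups are compared.

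Wnt proteins are secreted, lipid-modified ligands that bind a Frizzled receptor together with the co-receptor LRP5 or LRP6 and so stabilise beta-catenin, which then works with TCF/LEF factors in the nucleus. The pathway restrains itself: Axin2 rebuilds the complex that destroys beta-catenin, and the ubiquitin ligases RNF43 and ZNRF3 remove Frizzled from the cell surface unless R-spondins and LGR4 or LGR5 hold them back. Mutations that inactivate human RNF43 occur in pancreatic tumours and make the cells depend on their own Wnt ligands. Wnt5a and related ligands can also act without beta-catenin, through ROR1 and ROR2.

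Library totals ran from 16471558 to 18701274 counts. Values of a gene are given in CPM, counts scaled by the library total times a TMM scaling factor (0.986 to 1.013). At this depth 1 count was worth 0.0532 to 0.0607 CPM, and a gene with 0 counts may still reach 0.160 to 0.182 CPM (3 counts). The ductal origin on the labels fitted the marker genes, since 8 of 10 ductal markers had at least 1 CPM in every line, Krt8 and Krt19 at 837.2 CPM or more. The exceptions were Epcam (0.243 to 10.5 CPM) and Cldn4 (0.163 to 3.35 CPM). Of 7 immune markers, 0 reached 1 CPM in any line, and of 10 fibroblast markers 4 did: Acta2 (21.6 CPM in KPC630), Pdgfrb (3.05 in KPC469), Col1a1 (2.66 in KPC630) and Pdgfra (2.23 in KPC469). The fibroblast genes Dcn, Lum and Thy1 had 0 counts throughout. The fibroblast sum was lowest in KPC142 (1.20 CPM) and highest in KPC630 (25.4), with 7.52 in KPC469. KPC469 stood apart from the other libraries, with a mean Spearman correlation of 0.918 to them over 11531 genes, against 0.928 to 0.943 for the other lines. Its summed ductal markers were also the lowest, 2917 CPM against 7169 to 12122 CPM elsewhere. In such bulk RNA, fewer cells making a transcript and less transcript per cell cannot be told apart.

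The promoters of 3 genes show the sequence context of the results that follow. Dkk2 had the widest range of all members, Axin2 is the textbook target of beta-catenin, and Rnf43 is the feedback gene that marks the list. Each window runs from 250 bases before to 50 after a RefSeq start site, on the plus strand of GRCm38.p6, an earlier build than the GRCm39 used for the counts. Letters in capitals are matches to CTTTGA or CTTTGT, cores of TCF/LEF sites, searched on both strands. The windows are chr3:132085042-132085341 for Dkk2, chr11:108920099-108920398 for Axin2 and chr11:87662837-87663136 for Rnf43, the first of 2 windows listed for that gene.
Dkk2: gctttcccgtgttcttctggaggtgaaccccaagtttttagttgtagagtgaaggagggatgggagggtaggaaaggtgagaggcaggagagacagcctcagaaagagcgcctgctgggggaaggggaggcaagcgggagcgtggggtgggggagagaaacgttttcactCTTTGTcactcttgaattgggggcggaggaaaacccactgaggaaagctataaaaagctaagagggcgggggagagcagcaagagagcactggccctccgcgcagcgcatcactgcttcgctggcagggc
Axin2: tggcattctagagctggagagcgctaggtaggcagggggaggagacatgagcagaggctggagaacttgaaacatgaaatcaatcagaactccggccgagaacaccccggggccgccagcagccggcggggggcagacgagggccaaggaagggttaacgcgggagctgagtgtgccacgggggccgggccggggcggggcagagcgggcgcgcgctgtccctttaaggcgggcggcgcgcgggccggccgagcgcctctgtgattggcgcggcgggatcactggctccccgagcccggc
Rnf43: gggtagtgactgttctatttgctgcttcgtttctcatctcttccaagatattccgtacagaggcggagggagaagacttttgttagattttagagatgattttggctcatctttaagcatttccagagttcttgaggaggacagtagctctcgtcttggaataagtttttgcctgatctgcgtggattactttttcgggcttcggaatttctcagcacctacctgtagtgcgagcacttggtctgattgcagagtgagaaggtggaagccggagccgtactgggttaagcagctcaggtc
The Dkk2 window held 1 match, CTTTGT, and the other 2 windows held none. Over the 32851 windows of the RefSeq table, 5257 (16%) held CTTTGA and 6147 (18.7%) held CTTTGT. Among the 38 windows of the 30 members matched by symbol, 5 and 7 did (13.2% and 18.4%). GC content was 57.7% for Dkk2, 70.0% for Axin2 and 46.7% for Rnf43.

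Of the 45 members, 25 reached 2 CPM in at least 1 line, 6 peaked between 0.5 and 2 CPM, and 14 stayed below 0.5 CPM everywhere, 7 of them with 0 counts in all lines. Of the 12 members with at least 2 CPM in every line, 6 were Frizzled receptors, 2 co-receptors and 1 a ligand. Among the 25 members, 17 (68.0%) spanned a range of 4-fold or more over the 6 lines, set beside 23.4% of the 12736 genes at the same level. A gene that passes at 2 CPM through 1 high line is prone to such a range, so the count was also made over genes with at least 2 CPM in every line, where 4 of 12 members (33.3%) and 9.19% of genes passed 4-fold. The members that did so were Wnt7a, Fzd1, Fzd2 and Fzd6, of which the Frizzled genes lost the 4-fold range when 1 line was left out. Under the edgeR filter filterByExpr, which asks for about 10 counts in each line, it was 5 of 13 (38.5%), with Rnf43 as the fifth, against 13.8% of genes. Without KPC469, 14 of 23 members had such a range, a setting for which no share of all genes is given here. The median range, as highest over lowest line, was 1.496 log2 units for the 12 members and 0.898 for all genes at 2 CPM in every line. Under filterByExpr it was 1.59 for members and 0.964 for all genes, and at 2 CPM in a line 3.90 and 1.05.

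**Figure D1:**
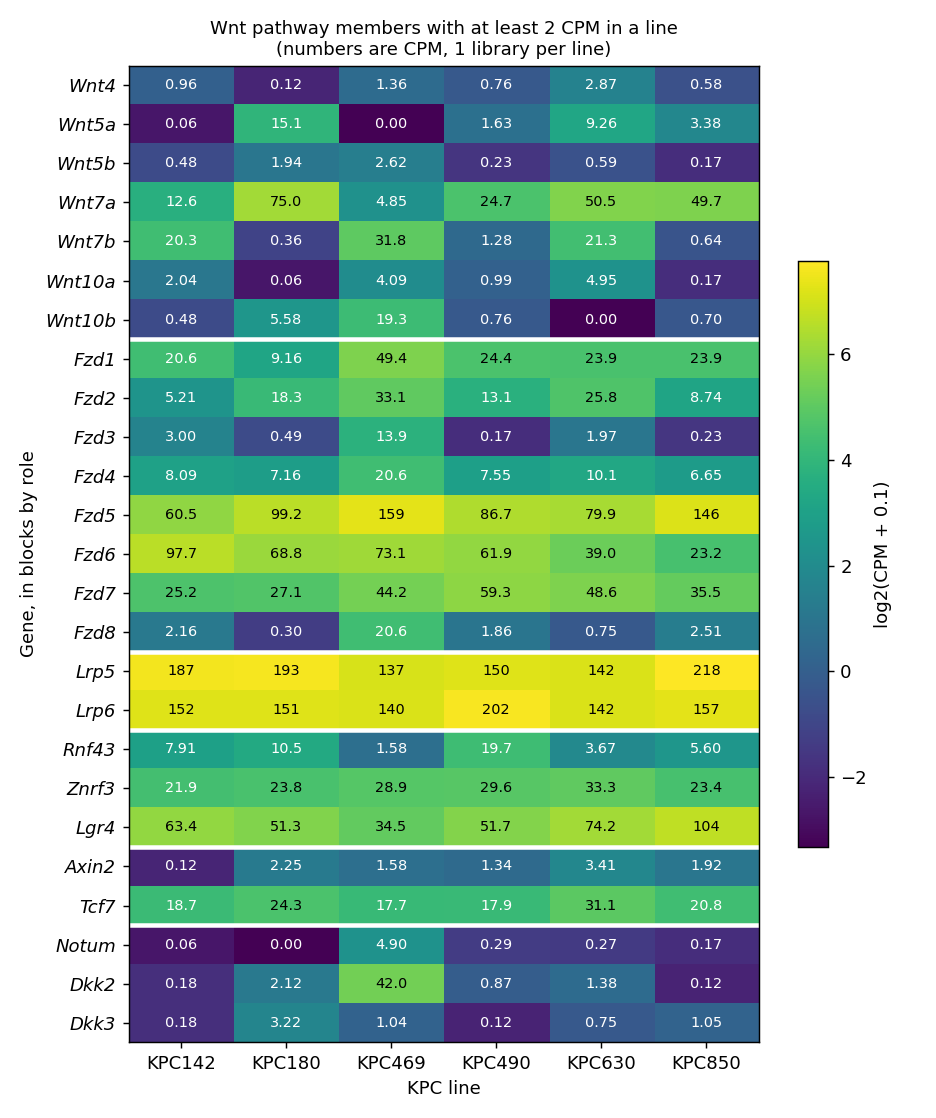
Level of the 25 members with at least 2 CPM in a line (rows, in blocks by role) in each of the 6 KPC lines (columns), coloured by log2(CPM + 0.1) with the CPM printed in each cell. Lrp5, Lrp6, Fzd5 and Lgr4 are bright in every column, whereas Wnt5a, Wnt7b, Wnt10b, Dkk2 and Notum are bright or mid-toned in some columns and dark in others.

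Among the ligands, 7 of 19 reached 2 CPM in a line, and all 7 had a range of 4-fold or more, which the filter favours: Wnt4 and Wnt5b passed it through 1 line each. Among ligands with at least 1 count it was 8 of 15, set beside 17.9% of all genes. Only Wnt7a stayed above 2 CPM in all 6 lines. Wnt7a (ENSMUSG00000030093) had 75.0 CPM in KPC180, 50.5 in KPC630, 49.7 in KPC850, 24.7 in KPC490, 12.6 in KPC142 and 4.85 in KPC469. The highest line, KPC180, exceeded the lowest, KPC469, by 15.5-fold (exact conditional 95% interval 12.5 to 19.4). Intervals given here and below cover counting error between 2 libraries only and say nothing of how a repeat culture would vary.

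Wnt7b (ENSMUSG00000022382), a close relative of Wnt7a, followed another order. It had 31.8 CPM in KPC469, 21.3 in KPC630, 20.3 in KPC142, 1.28 in KPC490, 0.641 in KPC850 and 0.364 in KPC180. The lines thus fell apart without overlap: 3 lines lay above 20 CPM and 3 below 1.3 CPM. The ratio of KPC469 to KPC180 was 87.4 (39.9 to 239.1). KPC469 was the highest line for Wnt7b and the lowest for Wnt7a, KPC180 the highest for Wnt7a and the lowest for Wnt7b, and KPC630 had more than 20 CPM of both.

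**Figure D2:**
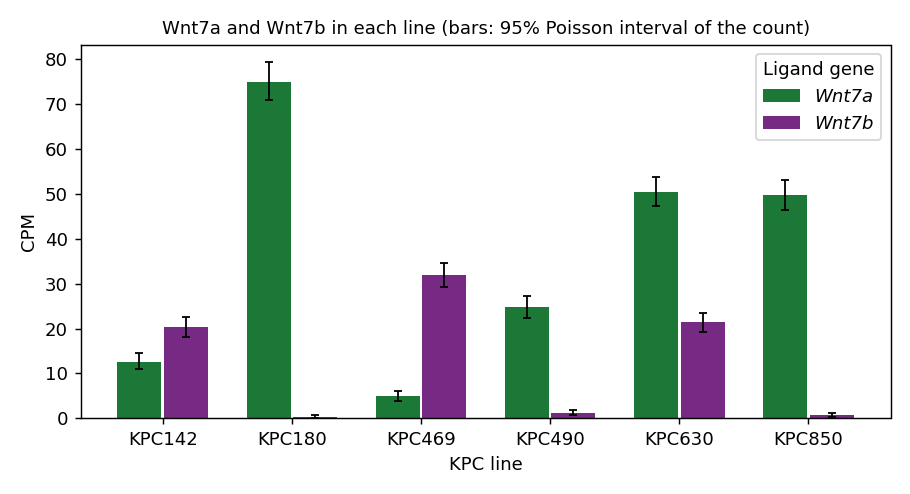
Wnt7a and Wnt7b (bars, CPM) in each KPC line, with exact 95% Poisson intervals of the count as error bars. Wnt7a is highest in KPC180 at 75.0 CPM, and Wnt7b exceeds 20 CPM in KPC142, KPC469 and KPC630 but stays under 1.3 CPM in the other 3 lines.

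Wnt10a, Wnt4, Fzd3 and Fzd4 shared the order of Wnt7b in that their 3 highest lines were KPC142, KPC469 and KPC630. Wnt10a had 2.04, 4.09 and 4.95 CPM in those lines and 0.0607 CPM (1 count) in KPC180, 0.987 in KPC490 and 0.175 (3 counts) in KPC850. For Wnt4, a ligand of kidney and gonad development, the values were 0.959, 1.36 and 2.87 CPM in the same 3 lines, against 0.121 (2 counts) in KPC180, 0.755 in KPC490 and 0.583 in KPC850. In all, 5 of the 25 members (20%) had these 3 highest lines, set beside 4.55% of all 12736 genes, and 0 members had the other 3 lines highest, set beside 4.41%. Wnt4, Wnt7b, Wnt10a and Fzd3 reached 2 CPM only among KPC142, KPC469 and KPC630, so the filter favours this order for them. KPC142 and KPC490 had 135 and 130 counts of Fzd4, and 16 and 13 of Wnt4. The third place is thus within counting error for both genes. This order was noticed after the values were seen and no test was made of it. Pcdh7, the protocadherin gene the study singled out, had 4.31, 0.109 and 3.78 CPM in KPC142, KPC469 and KPC630, against 108.6, 47.6 and 131.5 CPM in KPC180, KPC490 and KPC850.

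Wnt5a, the main ligand of signalling without beta-catenin, had 15.1 CPM in KPC180, 9.26 in KPC630, 3.38 in KPC850, 1.63 in KPC490, 0.0599 (1 count) in KPC142 and 0 counts in KPC469. It was at least 92.1-fold higher in KPC180 than in KPC469, taking 3 counts as the floor of that library. Its paralogue Wnt5b had 2.62 CPM in KPC469 (48 counts) and 1.94 in KPC180 (32 counts), the line highest for Wnt5a. Those counts are within counting error of each other, and Wnt5b reached 2 CPM in KPC469 only. Elsewhere Wnt5b had 0.586 CPM in KPC630, 0.479 in KPC142, 0.232 in KPC490 and 0.175 (3 counts) in KPC850. The ratio of KPC469 to KPC850 for Wnt5b was 15.0 (4.82 to 75.1).

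Wnt10b, a ligand that acts through beta-catenin in bone and fat, was at 19.3 CPM in KPC469, 5.58 in KPC180 and 0.755 or less in the other lines, with 0 counts in KPC630. KPC469 was at least 121.1-fold above KPC630 by the same floor. Its neighbour on chromosome 15, Wnt1, had 1 count in KPC180 and none elsewhere. Likewise Wnt6, next to Wnt10a on chromosome 1, had 2 counts at most in any line. The other adjacent pairs on chromosome 11 were Wnt9a with Wnt3a and Wnt3 with Wnt9b. Of the other ligands, Wnt9a peaked at 1.12 CPM and Wnt11 at 0.586 CPM, both in KPC630, and Wnt2b at 0.546 CPM in KPC180. Wnt16 reached 0.319 CPM and Wnt3 0.182 CPM (3 counts), Wnt2 had 2 counts at most, and Wnt3a, Wnt8a, Wnt8b and Wnt9b had 0 counts in all lines.

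Levels of different genes can be set side by side only per length, here CPM per kilobase of a gene's exons. On that scale the summed ligands ranged from 9.33 CPM per kilobase in KPC490 to 28.4 in KPC180. By median transcript length they ran from 42.05 in KPC469 to 269.2 in KPC180, so the lowest line depended on the length used. Wnt7a made up 83.2% of the sum in KPC180, 83.4% in KPC490, 63.6% in KPC630 and 93.0% in KPC850. In KPC142, Wnt7b (42.4%) and Wnt7a (40.8%) had near-equal shares. In KPC469, Wnt7b (37.9%) and Wnt10b (33.2%) led. With the median transcript length in place of the exon length, Wnt7a led in those 2 lines as well, with 82.7% in KPC142 and 38.8% in KPC469. That median is only 0.297 kilobases for Wnt7a, since short partial transcripts are annotated, so its shares come out high.

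Frizzled receptors, the seven-pass partners of the ligands, were broadly present: 8 of 10 reached 2 CPM in a line and 6 did so in every line. Fzd5 was at 159.1 CPM in KPC469, 145.9 in KPC850, 99.2 in KPC180, 86.7 in KPC490, 79.9 in KPC630 and 60.5 in KPC142, a 2.63-fold range (2.45 to 2.83). Human FZD5 is the receptor on which RNF43-mutant pancreatic cancer cells depend. An opposite-strand gene overlaps 17.8% of its exon bases and reached 1.14 CPM at most. Fzd7 kept within 2.36-fold (2.10 to 2.65), between 25.2 CPM in KPC142 and 59.3 in KPC490.

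Fzd6, a receptor known mainly from planar polarity, was highest in KPC142, the line lowest for Fzd5, with 97.7 CPM in KPC142, 73.1 in KPC469, 68.8 in KPC180, 61.9 in KPC490, 39.0 in KPC630 and 23.2 in KPC850. Its ratio of 4.21 between KPC142 and KPC850 has an interval of 3.77 to 4.71, which includes 4, and its range was 3.15-fold without KPC142 and 2.503-fold without KPC850. Fzd1 ranged from 9.16 CPM in KPC180 to 49.4 in KPC469, with the other 4 lines between 20.6 and 24.4 CPM, a ratio of 5.39 (4.53 to 6.45). Without KPC180 or without KPC469 its range was 2.40-fold or 2.66-fold. For Fzd2 the extremes were 33.1 CPM in KPC469 and 5.21 in KPC142, a ratio of 6.34 (5.06 to 8.04), and without KPC142 the range was 3.78-fold.

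Fzd8 and Fzd3 were each far higher in KPC469 than in any other line. Fzd8 had 20.6 CPM in KPC469, against 2.51 in KPC850, 2.16 in KPC142, 1.86 in KPC490, 0.745 in KPC630 and 0.303 in KPC180. The ratio of KPC469 to KPC180 was 67.9 (28.8 to 210.2). Fzd3, which acts in axon guidance and hair patterning, had 13.9 CPM in KPC469, 2.996 in KPC142, 1.97 in KPC630 and 0.485 or less in the other 3 lines. Fzd4, the receptor for norrin in retinal vessels, was also highest in KPC469 (20.6 CPM, against 6.65 to 10.1 elsewhere), with a range of 3.10-fold (2.51 to 3.86). Fzd9 peaked at 1.05 CPM in KPC490, and Fzd10 had 0 counts in every line.

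Per kilobase, the summed Frizzled level was 76.5 in KPC469 and 42.8 to 49.8 in the other 5 lines. Fzd6 held 47.3% of it in KPC142, and Fzd5 held 48.7% in KPC850 and 30.1% in KPC469. The leaders were closer in the other lines: Fzd5 33.2% and Fzd6 33.0% in KPC180, Fzd7 26.3% and Fzd6 25.8% in KPC490, Fzd5 25.7% and Fzd7 23.8% in KPC630. By median transcript length the sum was again highest in KPC469, at 169.3 CPM per kilobase, with KPC142 next at 156.6, and Fzd6 led in every line. That length is 0.750 kilobases for Fzd6.

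The co-receptor genes varied little, as did Znrf3 and Tcf7. Lrp5 lay between 136.9 CPM in KPC469 and 217.7 in KPC850, a ratio of 1.59 (1.51 to 1.67). Lrp6 had 139.9 to 157.3 CPM in 5 lines and 202.4 in KPC490, a ratio of 1.45 (1.37 to 1.52). Both ratios lie beyond counting error, but without replicate libraries they cannot be set against the spread of repeat cultures.

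**Figure D3:**
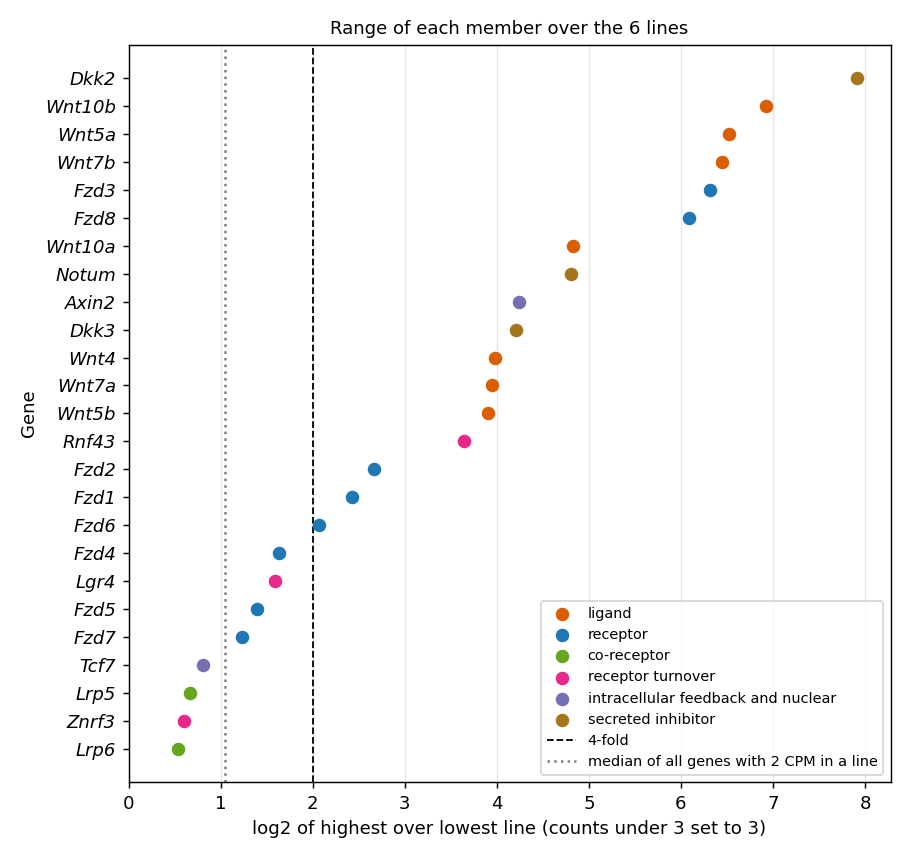
Range of each of the 25 members over the 6 lines, as log2 of the highest over the lowest line with counts under 3 set to 3, coloured by role. All 7 ligands and all 3 secreted inhibitors lie right of the dashed 4-fold line, and Lrp5, Lrp6, Znrf3 and Tcf7 lie left of the dotted median of all genes, 1.05.

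Rnf43 (ENSMUSG00000034177) had the widest range of the 3 receptor turnover members with at least 2 CPM in a line, Rnf43, Znrf3 and Lgr4. It had 19.7 CPM in KPC490, 10.5 in KPC180, 7.91 in KPC142, 5.60 in KPC850, 3.67 in KPC630 and 1.58 in KPC469. KPC490 was 12.5-fold above KPC469 (8.52 to 18.9). Znrf3, which encodes the second ligase of the same kind, was nearly level, from 21.9 CPM in KPC142 to 33.3 in KPC630, a ratio of 1.52 (1.33 to 1.73). In KPC469, the line lowest for Rnf43, Znrf3 stood at 28.9 CPM.

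Lgr4, an R-spondin receptor, had 104.0 CPM in KPC850, 74.2 in KPC630, 63.4 in KPC142, 51.7 in KPC490, 51.3 in KPC180 and 34.5 in KPC469, a 3.01-fold range (2.75 to 3.30). Lgr5, the stem cell marker of the intestine, was scarce, with 19 counts in KPC490 (1.10 CPM), 10 in KPC630 (0.532 CPM) and 2 or fewer elsewhere.

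Axin2 was low throughout. It had 3.41 CPM in KPC630, 2.25 in KPC180, 1.92 in KPC850, 1.58 in KPC469 and 1.34 in KPC490, and 2 counts (0.120 CPM) in KPC142. KPC630 exceeded KPC142 by 28.4-fold, with a wide interval of 7.56 to 239.8, and by 18.95-fold with the 2 counts raised to the floor of 3. Without KPC142 the range was 2.55-fold, so the 4-fold range of Axin2 rests on that line. Nkd1, another feedback gene, and Lef1, a TCF/LEF factor that is itself a Wnt target, had 0 counts in every line.

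Tcf7, the remaining TCF/LEF member, was even: 31.1 CPM in KPC630, 24.3 in KPC180, 20.8 in KPC850, 18.7 in KPC142, 17.9 in KPC490 and 17.7 in KPC469, a ratio of 1.76 (1.53 to 2.02). KPC180 and KPC630 were the 2 highest lines for Tcf7, Axin2, Wnt5a and Wnt7a. That is 4 of the 25 members (16%), set beside 6.49% of all genes, an order noticed after the values were seen. Axin2 reached 2 CPM in KPC180 and KPC630 only, so the filter favours the order for it. For Wnt7a the counting intervals of KPC630 (47.3 to 53.8 CPM) and KPC850 (46.4 to 53.2 CPM) overlap, and for Axin2 KPC180 and KPC850 had 37 and 33 counts, so the second place is within counting error for both genes.

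**Figure D4:**
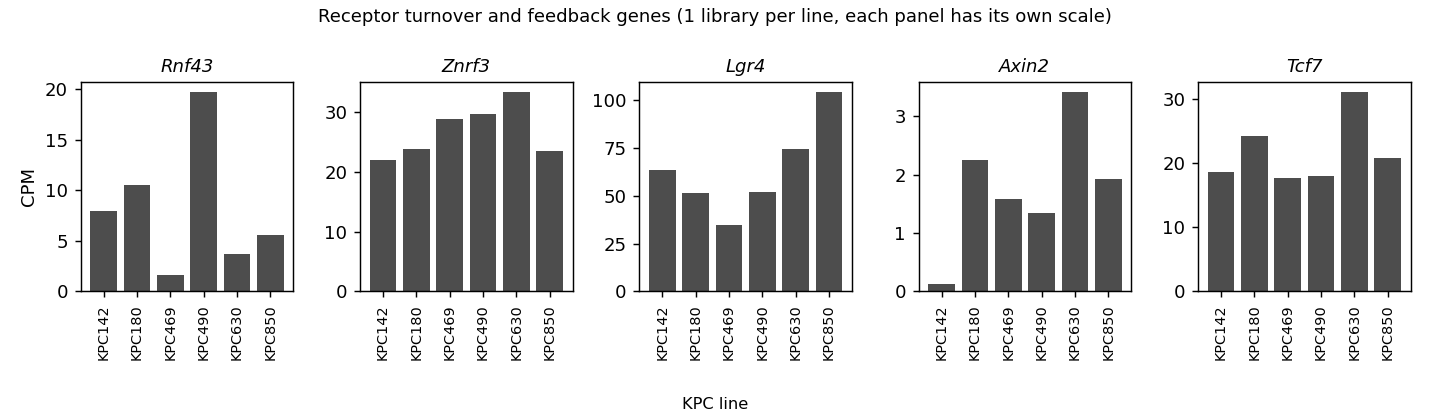
CPM of Rnf43, Znrf3, Lgr4, Axin2 and Tcf7 in each KPC line, 1 bar per library and a separate linear scale per panel. Rnf43 is highest in KPC490 (19.7 CPM) and lowest in KPC469 (1.58), Axin2 is lowest in KPC142 (0.120), and Znrf3 and Tcf7 are nearly level.

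Whether Rnf43 moved with the other feedback genes over the lines was examined for the 4 that had at least 1 CPM in 3 or more lines. In exact two-sided permutation tests over the 720 orders of the 6 lines, none of the 4 passed 0.05. With Znrf3, Pearson r was -0.277 (p = 0.6, adjusted 0.826, exact permutation) and Spearman rho was -0.143 (p = 0.803, adjusted 1). For Axin2, r was -0.217 (p = 0.640, adjusted 0.826) and rho -0.314 (p = 0.564, adjusted 1), both by exact permutation. For Lgr4, r was 0.203 (p = 0.726, adjusted 0.826) and rho -0.0286 (p = 1, adjusted 1), both by exact permutation. For Tcf7, r was -0.115 (p = 0.826, adjusted 0.826) and rho 0.0286 (p = 1, adjusted 1), both by exact permutation. Without KPC469 and KPC490, the lines farthest from the Rnf43 median, r was -0.794, -0.411, -0.646 and -0.569 for Znrf3, Axin2, Lgr4 and Tcf7 over the remaining 4 lines. For Pearson r over 6 lines the smallest exact permutation p is 0.00139, or 0.00556 after adjustment for a single pair. For Spearman rho the limit is higher, since the reversed order gives a rho of the same size.

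Among the secreted inhibitors, Dkk2 and Notum had most of their counts in KPC469, and Dkk1 had all of its counts in KPC490. Dkk2 (ENSMUSG00000028031), a dickkopf protein that binds LRP5 and LRP6, had 42.01 CPM in KPC469 (771 counts), 2.12 in KPC180, 1.38 in KPC630, 0.871 in KPC490, 0.180 (3 counts) in KPC142 and 0.117 (2 counts) in KPC850. Its ratio of 360.3 between KPC469 and KPC850, on the counts as they stand, has an interval of 99.4 to 2981. With the 2 counts raised to the floor of 3, as in the plot of ranges, it was 240.2. Notum, a hydrolase that strips the lipid from Wnt proteins, had 4.90 CPM in KPC469 (90 counts), 5 counts or fewer in the others and 0 in KPC180, where KPC469 was at least 26.9-fold higher. Without KPC469 the range of Notum was 1.66-fold on floored counts. Its antisense gene Notumos overlaps 29.4% of the Notum exon bases and had 0.490 CPM in KPC469, its highest line. Dkk3, a divergent dickkopf gene, was highest in KPC180 at 3.22 CPM, with 1.05 in KPC850, 1.04 in KPC469, 0.745 in KPC630, 0.180 (3 counts) in KPC142 and 0.116 (2 counts) in KPC490. Dkk1 had 15 counts in KPC490 (0.871 CPM) and 0 in the other 5 lines. Sfrp1 and Sfrp2, which bind Wnt proteins outside the cell, had 1 count each in the whole data set.

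KPC469 was the highest line for 11 of the 25 members (44.0%), while it was the highest for 21.4% of all genes. It was the lowest for 7 (28.0%), against 19.7% of all genes. Wnt5b and Notum passed the 2 CPM filter through KPC469 alone, Wnt4 through KPC630 alone and Dkk3 through KPC180 alone. For these members the highest line follows from the filter. The shares of members highest in the other lines were 4.0% for KPC142, 12.0% for KPC180, 12.0% for KPC490, 20% for KPC630 and 8.0% for KPC850, set beside 19.1%, 15.8%, 14.9%, 14.1% and 14.7% of all genes in the same order of lines. The shares of members lowest in those lines were 20% for KPC142, 24.0% for KPC180, 8.0% for KPC490, 4.0% for KPC630 and 16% for KPC850, set beside 21.0%, 17.0%, 12.0%, 14.0% and 16.3% of all genes. Dkk2, Notum, Fzd8 and Fzd3 were at least 4-fold above the next line in KPC469, 4 of 25 (16%) against 1.11% of genes. Notum passed the filter through KPC469 alone, so that its place there follows from the filter. Axin2 in KPC142 was the 1 member at least 4-fold below the next line (4.0%), against 0.73% of genes. By Dixon's gap, a single line lay far from the other 5 for 4 members (16%), Fzd4, Lrp6, Axin2 and Notum, against 7.25% of genes. The part of the fibroblast markers, given above, in the KPC469 values was not tested. Of the other marker lists, the endothelial sum was 2.82 CPM at most (KPC630), the acinar 20.9 (KPC180), the endocrine 7.10 (KPC180) and the neural and glial 1.86 (KPC490).

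The rest of the pathway was taken from a list of 74 other genes, of which 72 were found. Of these, 49 reached 2 CPM in a line and 13 (26.5%) had a range of 4-fold or more, close to the 23.4% of all genes. The median range was 1.10 log2 units. Genes of cytoplasmic transduction were the most even, with 1 of 18 past 4-fold. That gene was Apc2, at 3.46 CPM in KPC630 and 1 count in KPC850. Csnk1d, Btrc and Amer1, the next widest of that role, had ranges of 2.15-fold, 2.34-fold and 2.86-fold. Ctnnb1, the gene of beta-catenin (chosen after its values were seen), had 1087 to 1394 CPM in the 6 lines.

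Both genes needed to make active Wnt proteins were expressed in all lines. Wls, the carrier that brings Wnt proteins to the surface, had 113.2 CPM in KPC469, 61.1 in KPC630, 58.3 in KPC180, 38.9 in KPC850, 37.0 in KPC490 and 23.4 in KPC142, a ratio of 4.84 (4.35 to 5.41). Porcn, which attaches the lipid, was highest in KPC630 at 101.2 CPM and lowest in KPC142 at 38.4, a ratio of 2.63 (2.41 to 2.88). KPC142 was thus the lowest line for both.

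Among other receptors, 4 of the 6 genes at 2 CPM passed 4-fold, set beside 23.4% of all genes. Ror2 had 10.2 CPM in KPC630, 7.16 in KPC180, 0.987 in KPC490, 0.233 in KPC850, 1 count in KPC469 and 0 counts in KPC142, at least 56.9-fold between KPC630 and KPC142. Ror1 was highest in KPC180 (9.53 CPM) and KPC630 (6.55) and lowest in KPC469 (0.763), a ratio of 12.5 (7.23 to 23.4). The 2 highest lines of Ror1 and Ror2, KPC180 and KPC630, were also those of Wnt5a. They were the 2 highest lines for 7 of 49 other pathway genes (14.3%), set beside 6.49% of all genes. Besides Ror1 and Ror2, these were Axin1, Apc2, Apcdd1, Jun and Tbx3. This order, too, was noticed after the values were seen. The second place of KPC180 is within counting error for Axin1, Apc2, Apcdd1, Jun and Tbx3. Jun had 20.5 CPM in KPC180 and 19.5 in KPC490, and Apcdd1 had 16.3 and 14.9. Apc2 had 1.46 CPM in KPC180 and 1.31 in KPC469, and Tbx3 had 1 count in KPC180. Apc2 and Tbx3 reached 2 CPM in KPC630 only, so the filter favours that line for them. Ror2 reached 2 CPM in KPC180 and KPC630 only, so the filter favours the order for it. Ptk7, a Wnt co-receptor of planar polarity, had 77.4 CPM in KPC180, 35.9 in KPC469, 29.8 in KPC630, 22.6 in KPC490, 8.86 in KPC850 and 1.62 in KPC142, a ratio of 47.8 (32.7 to 72.9). Lgr6 lay between 8.57 CPM in KPC850 and 43.1 in KPC180.

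R-spondins, the ligands of the LGR receptors, did not reach 2 CPM in any line, and the highest was Rspo2 at 1.88 CPM. Of 11 further inhibitors found, Apcdd1 alone reached 2 CPM, from 7.07 CPM in KPC142 to 25.8 in KPC630. In the nucleus, 2 of 12 genes at 2 CPM passed 4-fold, set beside 23.4% of all genes. Tcf7l1, usually a repressor, ran from 0.408 CPM in KPC850 to 4.30 in KPC469, and Tle4, a co-repressor, from 6.10 in KPC469 to 34.8 in KPC630. Bcl9 and Cby1 varied by 2.53-fold and 3.17-fold.

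Of 15 other genes listed as Wnt targets in one tissue or another, 10 reached 2 CPM. Of these 5 passed 4-fold, set beside 23.4% of all genes. Prox1 and Tbx3, however, had 2 CPM in 1 line each and so passed through it. Sox9, a ductal transcription factor, had 43.4 CPM in KPC469, 41.6 in KPC850, 31.1 in KPC490, 23.5 in KPC630, 10.01 in KPC180 and 4.55 in KPC142, a ratio of 9.52 (7.52 to 12.2). Jun was highest in KPC630 at 40.9 CPM and lowest in KPC142 at 7.79. Prox1 reached 2.34 CPM in KPC142 with 2 counts at most elsewhere, Tbx3 2.34 CPM in KPC630 with 1 count at most elsewhere, and the fifth was Ephb3 (chosen after its values were seen), with 8.44 CPM in KPC180 and 39.6 in KPC469.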

How the data were processed

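A stranded mRNA kit was used, per the labels' protocols. RSEM 1.3.3, STAR 2.7.10b, Trimmomatic 0.36 and the build GRCm39 are listed in the submitters' processing notes; the annotation and strand setting are not given in the sources used here. The authors deposited expected counts (RSEM's estimated counts) for 56953 genes, rounded here to whole numbers. Among members, Fzd5 and Notum had values that were not whole. No member shared 200 bases at 90% identity with another member (BLAST 2.17.0). Antisense genes overlap exons of Fzd5, Notum, Wnt5a and Wnt7b, among others, and reached 1.26 CPM at most.

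Symbols matched 52029 identifiers (GENCODE vM21, on GRCm38, also the source of lengths). CPM used TMM factors (edgeR 4.0.16, R 4.3.3) computed on the 11531 genes that filterByExpr kept. With 1 library per line and no groups, no differential test was made; alternatives covered scaling, filters, floor and lines left out. Members named are those with at least 2 CPM in a line; of other genes, the 4 with the widest range per role. Members and lists were chosen with earlier results of these data known. Ratio intervals are exact conditional binomial (SciPy 1.17.1). Calculations were tested on simulated data.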

Additional observations from a re-analysis of the deposited data

Results flagged for a closer look

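In 4 of the 25 members (16%), 1 line lay far from the other 5 on the log2 CPM scale, by its gap to the nearest line as a share of the whole range (Dixon's 95% critical value). Such a gap was found in 7.25% of all 12736 genes, and chance alone gives about 1 in 20. The 6 lines are different tumours and not replicates of 1 group. Notum was far above the other lines in KPC469, with a gap of 0.666 of its range. Fzd4 was also set apart by its high value in KPC469 (0.635), and Lrp6 by that in KPC490 (0.683). Axin2 was set apart by its low value in KPC142 (0.673), which rests on 2 counts.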

How the results depend on the processing

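Scaling changed little: with RLE factors or plain library totals, 17 of 25 members again passed 4-fold. The filter on low values changed this count, to 11 of 19 members at 10 CPM in a line (15.5% of genes), 5 of 13 under filterByExpr, and 4 of 12 at 2 CPM in every line, a setting chosen after seeing the data. These settings test fewer members by construction. With every gene of at least 1 count it was 21 of 38 (17.9% of genes), and with each line left out in turn 14 to 17. Of other pathway genes, 8 of 44 passed 4-fold both at 10 CPM and under filterByExpr, and 10 to 13 with a line left out. No share of all genes is given here for the settings with a line left out. At 10 CPM, KPC180 was lowest for 3 members in place of 6, KPC490 lowest for 1 in place of 2, and KPC630 highest for 2 in place of 5.

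The correlation of Rnf43 with Lgr4 ran from -0.725 without KPC469 to 0.440 without KPC490, and that with Tcf7 from -0.709 without KPC469 to 0.256 without KPC630, with 0.197 without KPC490. The cause was not tested.

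By median transcript length, the share of Wnt7a in the ligand sum was 93.8% in KPC180, 96.1% in KPC490, 89.7% in KPC630 and 97.7% in KPC850, and that of Wnt7b 12.6% in KPC142 and 24.2% in KPC469. Of the Frizzled sum, Fzd6 then held 83.2% in KPC142, Fzd7 10.5% in KPC490, and Fzd5 15.99% in KPC180, 19.2% in KPC469, 17.4% in KPC630 and 38.1% in KPC850. No paired analysis was possible because the lines belong to no groups. Members near the floor of 3 counts, such as Axin2 in KPC142, have ratios with wide counting intervals.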
